A study of Mus musculus with 6 samples.

Results

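Transcripts of 9 genes of the megakaryocyte and platelet lineage (Pf4, Ppbp, Itga2b, Itgb3, Gp1bb, Gp9, Gp5, Gp6 and Tubb1) were followed in mouse fetal liver erythroblasts grown with or without added cholesterol. The genes were chosen by symbol as platelet receptor, granule and cytoskeleton genes, and all 9 were found among the 17463 genes listed. Erythroblasts of C57BL/6J fetal liver that lacked TER119, a surface antigen gained during erythroid maturation, were grown for 30 h in medium with erythropoietin. There were 3 control libraries from cultures without added cholesterol and 3 libraries from cultures with 40 µM cholesterol. The labels describe the controls as untreated, the methods as grown without cholesterol and a figure caption of the study as given vehicle. By the methods, cells that had become TER119+ were collected with a flow sorter before RNA extraction, whereas the sample labels do not mention this sort. The labels do not say whether the libraries of a group came from separate cultures or litters, and the independent experiments that the study names for its plotted means are not tied to these libraries, so p-values measure only the spread between these libraries, which may be technical.

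Megakaryocytes and erythroid cells descend from a shared progenitor, and the factors GATA1, NFE2 and GFI1B act in both lineages. Megakaryocytes load alpha granules with chemokines, place adhesion receptors on their surface and release platelets from long microtubule-filled extensions. Platelets then bind von Willebrand factor through the GPIb-IX-V complex, collagen through glycoprotein VI and fibrinogen through the integrin αIIbβ3. Itga2b, whose product is also known as CD41, is also transcribed in early blood progenitors.

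Polyadenylated RNA was sequenced, and each library held between 19826797 and 20061702 estimated counts. Levels between libraries are given as CPM, in which counts are scaled by library size with TMM normalization, and 3 counts, taken as the floor of detection, corresponded to 0.148 to 0.156 CPM. Levels between genes are given as FPKM, which also divides by transcript length. The libraries lay apart mainly by replicate number, with 70.3% of the variance on the first principal component and control library 3 at its far end, at a score of 58.5. Same-numbered libraries of the groups deviated together from their group means, with correlations of 0.729, 0.348 and 0.825 across genes for numbers 1, 2 and 3. Libraries with different numbers had correlations from −0.795 to 0.346, the highest between control library 1 and cholesterol library 2, close to that of the pair numbered 2. Deviations from a group mean cancel out within the group, so these values are not independent of those of the same-numbered pairs. The members were compared across the groups, within same-numbered pairs and by replicate number.

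The promoters of 4 members are shown. Pf4 and Ppbp lie next to each other and were both highest in control library 3, and Itga2b and Gp9 had the highest levels. Each line gives the 250 bases before the transcript start used in the RefSeq promoter table (GRCm38.p6), 5′ to 3′ on the strand of the gene, and capitals mark matches to AGGAAG or CGGAAG (core letters of an ETS factor site) on either strand.
Pf4 (chr5:90772185-90772434, + strand): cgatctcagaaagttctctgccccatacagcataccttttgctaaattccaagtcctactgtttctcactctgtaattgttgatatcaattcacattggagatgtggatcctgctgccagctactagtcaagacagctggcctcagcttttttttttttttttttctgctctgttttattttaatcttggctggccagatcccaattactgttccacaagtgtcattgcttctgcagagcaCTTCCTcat
Ppbp (chr5:90768268-90768517, + strand): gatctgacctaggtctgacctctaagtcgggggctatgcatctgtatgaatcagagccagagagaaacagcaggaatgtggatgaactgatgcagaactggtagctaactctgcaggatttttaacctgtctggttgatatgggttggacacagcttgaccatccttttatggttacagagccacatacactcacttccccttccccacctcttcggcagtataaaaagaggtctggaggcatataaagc
Itga2b (chr11:102469884-102470133, − strand): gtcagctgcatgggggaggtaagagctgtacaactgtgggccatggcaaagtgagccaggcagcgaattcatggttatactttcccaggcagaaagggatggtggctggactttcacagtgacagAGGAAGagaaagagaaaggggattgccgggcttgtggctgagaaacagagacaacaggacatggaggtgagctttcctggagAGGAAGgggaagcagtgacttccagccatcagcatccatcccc
Gp9 (chr6:87777820-87778069, + strand): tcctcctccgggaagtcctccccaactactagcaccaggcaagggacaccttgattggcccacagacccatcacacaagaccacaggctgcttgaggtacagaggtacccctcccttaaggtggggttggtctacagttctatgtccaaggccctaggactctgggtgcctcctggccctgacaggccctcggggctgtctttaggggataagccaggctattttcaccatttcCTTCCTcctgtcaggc
The letters of a GATA site (AGATAA, together with the related forms AGATAG, searched in the same way, and TGATAA, with its own variant ending in another letter, TGATAG, all on both strands) were searched as well, and these windows held none of them. The ETS letters began 9 bases before the start in Pf4, 125 and 43 bases before it in Itga2b and 16 bases before it in Gp9, and Ppbp held no match. Promoters of 8 of the 9 members were in the RefSeq table. Among the others, Gp5 held 3 GATA matches (115, 93 and 77 bases before the start) and 1 ETS match, Gp1bb held 1 of each, Gp6 held 1 GATA match and Tubb1 held 1 ETS match. ETS letters occurred in 39.2% and GATA letters in 26.5% of the 32851 promoter windows of the same length. Gene positions below span all RefSeq transcripts of a gene, and for Gp9 and Gp6 the start in the promoter table lies inside that span. A match describes the letters only, and no binding was measured.

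The most abundant members per length were Itga2b and Gp9. Itga2b, the αIIb integrin chain (chromosome 11, 102453297 to 102469883, − strand, GRCm38.p6), had 11.2 ± 1.42 FPKM (SD over 6 libraries), and Gp9, the glycoprotein IX subunit of the von Willebrand factor receptor (chromosome 6, 87776131 to 87779786, + strand), had 10.5 ± 1.51 FPKM. The alpha granule chemokines followed, with 5.45 ± 2.64 FPKM for Pf4 (platelet factor 4) and 2.26 ± 1.95 FPKM for Ppbp (the precursor of the neutrophil-attracting chemokine CXCL7). Tubb1, the β1-tubulin of the platelet marginal band, had 2.14 ± 0.643 FPKM. The remaining receptor genes lay lower, at 0.858 ± 0.321 FPKM for Gp5, 0.668 ± 0.333 for Itgb3, 0.477 ± 0.340 for Gp1bb and 0.102 ± 0.109 for Gp6. Neighbours in this order had overlapping ranges over the 6 libraries, except Tubb1 and Gp5. By FPKM, Itga2b stood at percentiles 70.5 to 75.9 of the listed genes and Gp6 at percentiles 22.9 to 37.8. The shared regulator Gata1, for comparison, had a mean of 269 FPKM.

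**Figure D1:**
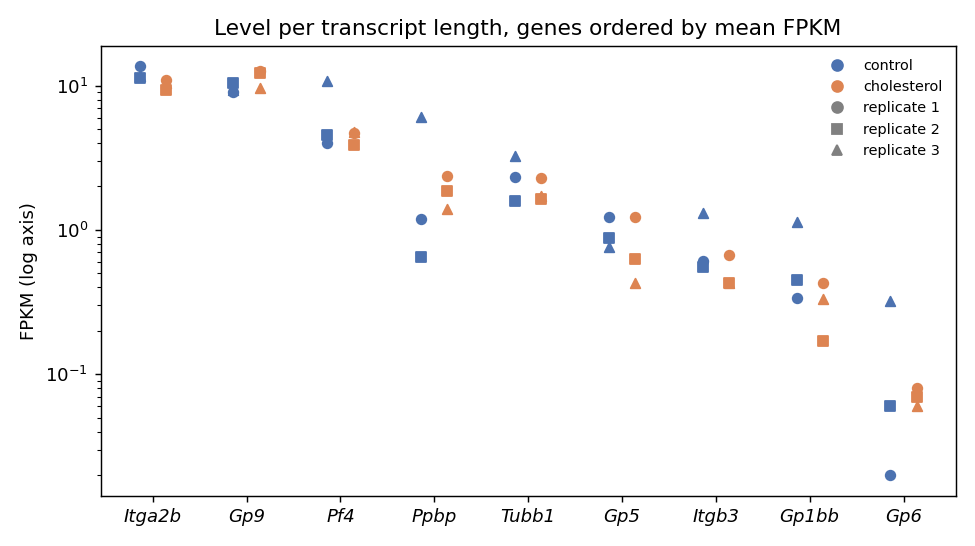
FPKM of each member on a log axis, with 1 point for each of the 6 libraries (blue control, orange cholesterol, marker shape by replicate number), genes ordered by their mean. Itga2b and Gp9 lie near 10 FPKM, Gp6 lies lowest, and only Tubb1 and Gp5 among neighbours have ranges that do not overlap.

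Cholesterol-treated erythroblasts had no member past the threshold when treatment alone was modelled. The edgeR quasi-likelihood test with Benjamini-Hochberg adjustment over 11277 genes called 0 of 9 members, and 1 of 9 (Itga2b) had an unadjusted p under 0.05. DESeq2 called 0 of 9, against 0.246% of the 11384 genes to which it gave an adjusted p. Of the genes tested, 0.00887% were called by the edgeR test and 2.63% had an unadjusted p under 0.05. Point estimates were below 0 for 8 members and above 0 for Gp9, with a median log2 fold change of −0.39 against 0.01 over all genes tested. Of all 11277 genes, 5405 had an estimate below 0 and 5872 above 0. All 9 members passed the filter on low counts. With the replicate number in the model, edgeR called 1 member lower (Itga2b) and 0 higher, against 5.20% of all genes called lower and 1.65% called higher. In these bulk samples, fewer cells of a type and less RNA per cell cannot be told apart.

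The integrin αIIbβ3, the fibrinogen receptor, is formed by the products of Itga2b and Itgb3. Itga2b measured 48.3, 38.8 and 42.7 CPM in control libraries 1, 2 and 3 and 37.5, 32.1 and 37.2 CPM in cholesterol libraries 1, 2 and 3. Every control value lay above every cholesterol value, as for 4.28% of all genes tested, and Itga2b was lower with cholesterol in 3 of 3 pairs. The means were 43.3 ± 4.80 CPM (SD, n = 3) in control and 35.6 ± 3.05 CPM (SD, n = 3) with cholesterol. With treatment alone, the log2 fold change was −0.28 (standard error 0.11, 95% interval −0.55 to −0.02, edgeR adjusted p = 0.9998). With the replicate number in the model, Itga2b fell by 0.28 on the log2 scale (standard error 0.06, 95% interval −0.40 to −0.16, edgeR adjusted p = 0.00538).

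That call depended on the libraries and the tool. In the edgeR model with the replicate number, Itga2b had an adjusted p of 0.0841 without both libraries numbered 1, of 0.0468 without those numbered 2 and of 0.000276 without those numbered 3. DESeq2 with the same terms gave an adjusted p of 0.181.

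Itgb3, the β3 integrin chain (chromosome 11, 104608000 to 104670476, + strand), measured 3.69, 3.22 and 8.10 CPM in control and 3.89, 2.52 and 2.56 CPM with cholesterol, libraries 1, 2 and 3 each. Control library 3 was 2.08 times the next highest, and the other libraries overlapped. The log2 differences within pairs 1, 2 and 3 were 0.07, −0.30 and −1.49. The log2 fold change was −0.74 (standard error 0.41, 95% interval −1.74 to 0.26, edgeR adjusted p = 0.9998), and it was −0.21 without control library 3. Its mean was 2.99 ± 0.783 CPM with cholesterol against 5.002 ± 2.69 CPM in control (SD, n = 3 each), a difference within the spread of the control libraries.

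The von Willebrand factor receptor is assembled from the products of Gp1ba, Gp1bb, Gp9 and Gp5. With all 6 libraries and the usual filter, edgeR called none of these genes in either model. Gp9 measured 16.5, 18.2 and 17.1 CPM in control and 22.0, 21.7 and 17.5 CPM with cholesterol. It was higher with cholesterol in 3 of 3 pairs (19.9% of all genes were), and the groups overlapped through cholesterol library 3, which lay below control library 2. With treatment alone, Gp9 gave 0.24 on the log2 scale (standard error 0.12, 95% interval −0.03 to 0.52, edgeR adjusted p = 0.9998).

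Gp5, glycoprotein V (chromosome 16, 30307685 to 30310781, − strand), measured 2.78, 1.93 and 1.76 CPM in control and 2.66, 1.38 and 0.971 CPM with cholesterol. It was below its control in 3 of 3 pairs (20.1% of all genes were), by 0.05 to 0.62 on the log2 scale, and the groups overlapped. The treatment estimate was −0.37 on the log2 scale (standard error 0.43, 95% interval −1.41 to 0.68, edgeR adjusted p = 0.9998). With 1 library left out it ranged from −0.87 (without cholesterol library 1) to −0.09 (without cholesterol library 3), and it was −0.14 without control library 1 and −0.25 without cholesterol library 2. Libraries numbered 1 had the highest Gp5 in both groups.

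Gp1bb, the glycoprotein Ib β subunit (chromosome 16, 18620319 to 18622403, − strand), measured 0.657, 0.842 and 2.23 CPM in control and 0.789, 0.296 and 0.613 CPM with cholesterol. It shares 593 bases with its neighbour Septin5, so its estimated counts are uncertain. The highest value was again that of control library 3, 2.65 times the next, and the groups overlapped. Within pairs 1, 2 and 3 the log2 differences were 0.16, −0.75 and −1.30. Its treatment estimate was −1.13 on the log2 scale (standard error 0.61, 95% interval −2.60 to 0.35, edgeR adjusted p = 0.9998), and it was −0.40 without control library 3. With the replicate number in the model it was −1.06 (edgeR adjusted p = 0.156). Without both libraries numbered 1, that model gave −1.72 (edgeR adjusted p = 0.0136), in a fit that called 6.12% of all genes lower. Gp1ba, the ligand-binding α subunit and a related gene outside the 9 members, measured 4.45, 3.86 and 4.78 CPM in control and 3.75, 2.37 and 3.12 CPM with cholesterol, with every control value above every cholesterol value. It was not called with the replicate number in the model (edgeR adjusted p = 0.112).

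Pf4 and Ppbp lie on chromosome 5, on the + strand, with 2371 bases between the end of Ppbp (90768518 to 90770063) and the start of Pf4 (90772435 to 90773383). Pf4 measured 2.33, 2.53 and 6.38 CPM in control and 2.61, 2.17 and 2.76 CPM with cholesterol. All other libraries thus lay between 2.17 and 2.76 CPM, and control library 3 was 2.31 times the next highest. Pairs 1, 2 and 3 differed by 0.14, −0.18 and −1.08 on the log2 scale. The log2 fold change was −0.57 (standard error 0.43, 95% interval −1.62 to 0.48, edgeR adjusted p = 0.9998), and it was 0.05 without control library 3.

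Ppbp measured 1.31, 0.693 and 6.80 CPM in control and 2.51, 1.98 and 1.53 CPM with cholesterol. The pairs went in opposite directions, with log2 differences of 0.73 and 1.05 for numbers 1 and 2 and of −1.84 for number 3. The log2 fold change was −0.54 (standard error 0.82, 95% interval −2.53 to 1.45, edgeR adjusted p = 0.9998). Its direction rested on control library 3, without which it was 0.999 and not called. Without both libraries numbered 3 and with the replicate number in the model, Ppbp was higher with cholesterol by 1.18 on the log2 scale (edgeR adjusted p = 0.0217), and Gp9 was higher by 0.33 (edgeR adjusted p = 0.00724). That fit leaves out the pair that went the other way for Ppbp, and it called 210 of 11128 genes higher. Ppbp had 26 and 14 counts in control libraries 1 and 2. With all 6 libraries, the model with the replicate number called neither, with −0.19 for Ppbp (edgeR adjusted p = 0.959) and 0.24 for Gp9 (edgeR adjusted p = 0.0868).

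Glycoprotein VI, the collagen receptor, is encoded by Gp6 (chromosome 7, 4362853 to 4397851, − strand). Gp6 measured 0.152, 0.396 and 1.14 CPM in control and 0.591, 0.543 and 0.409 CPM with cholesterol, which is 3 rounded counts in control library 1 and thus the floor of detection there. The transcript length implied by its counts and FPKM ranged from 3421 to 7672 bases between libraries, so its FPKM is uncertain. Its FPKM lay between 0.02 and 0.32 and is given to few decimals, so rounding also moves that length. Why the length differed was not tested. Within pairs 1, 2 and 3, Gp6 differed by 0.74, 0.22 and −0.85 on the log2 scale. The log2 fold change was −0.12 (standard error 0.70, 95% interval −1.82 to 1.57, edgeR adjusted p = 0.9998), and it was 0.89 without control library 3.

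Tubb1 (chromosome 2, 174450595 to 174458380, + strand) measured 4.80, 3.17 and 6.90 CPM in control and 4.53, 3.26 and 3.53 CPM with cholesterol. Numbers 1 and 2 nearly coincided between the groups, with log2 differences of −0.07 and 0.04, and the pair numbered 3 differed by −0.88. Between the groups, the log2 fold change was −0.39 (standard error 0.32, 95% interval −1.16 to 0.38, edgeR adjusted p = 0.9998). It was −0.08 without control library 3 and −0.63 without control library 2.

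**Figure D2:**
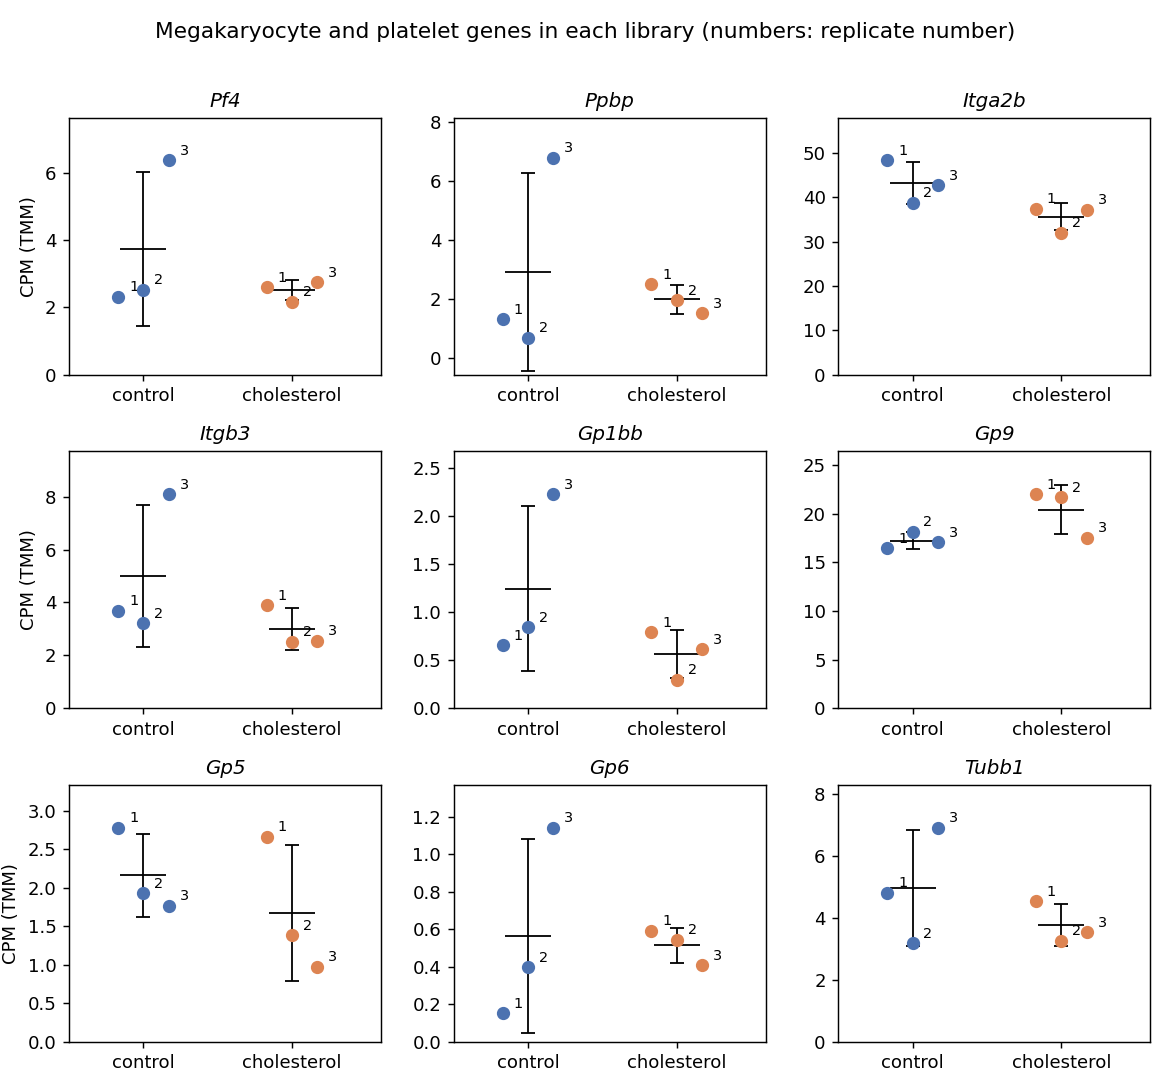
CPM of each member in the 3 control and 3 cholesterol libraries, 1 panel per gene, with replicate numbers beside the points and bars for the mean ± SD of each group. Control library 3 is the highest point for 6 of the 9 genes, Itga2b is the gene whose groups do not overlap, and the SD bar of Ppbp in control extends below 0 because the SD exceeds the mean.

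**Figure D3:**
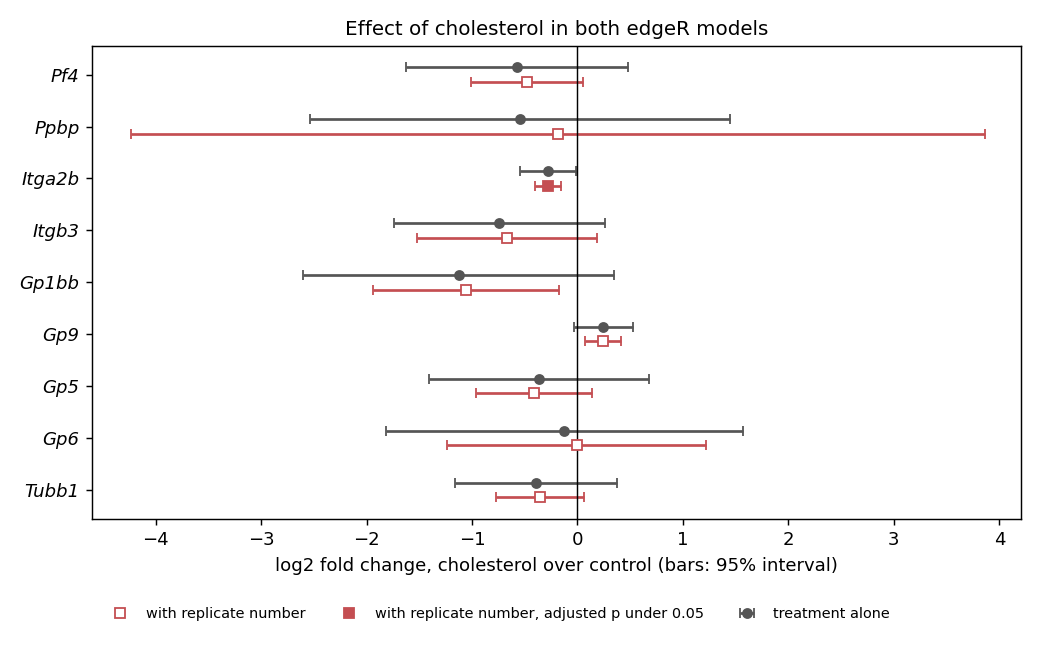
Log2 fold change of cholesterol over control for each member with its 95% interval, with treatment alone (grey circles) and with the replicate number in the model (red squares, filled where the adjusted p was under 0.05). The filled square is Itga2b. With treatment alone the interval leaves out 0 for Itga2b (−0.55 to −0.02), and the adjusted p is 0.9998 for all 9 genes.

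Replicate number was then tested as a term of its own, over all 3 numbers together because they have no order. It was called for 3 of 9 members by edgeR, against 46.3% of all genes tested, and these were Pf4 (adjusted p = 0.0314), Itga2b (adjusted p = 0.0122) and Gp5 (adjusted p = 0.0280). Relative to number 1, number 3 was 0.83 higher for Pf4 on the log2 scale and 1.02 lower for Gp5. The Pf4 difference was 0.18 without control library 3. The count of members called changed when single libraries were left out. Such a fit leaves 1 library for a number, so its counts are not given. DESeq2 called 0 of 9, and the share of all genes was not taken for that fit.

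Control library 3 was the highest library for 6 of 9 members (Pf4, Ppbp, Itgb3, Gp1bb, Gp6 and Tubb1), as for 24.4% of all genes tested. For 5 of the 9 members it was at least 1.5 times the next highest library, as for 6.34% of all genes, and for Tubb1 it was 1.44 times. Against the median of the other libraries it was 1.96 (Tubb1) to 4.43 (Ppbp) times as high for these 6 members. It lay at 1.14 times that median for Itga2b, 0.940 for Gp9 and 0.914 for Gp5. Cholesterol library 3, which shares its number, was not the highest library for any member. The summed CPM of the 9 members was 80.5, 69.7 and 93.1 in control and 77.1, 65.9 and 67.1 with cholesterol, with Itga2b and Gp9 making up most of it.

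**Figure D4:**
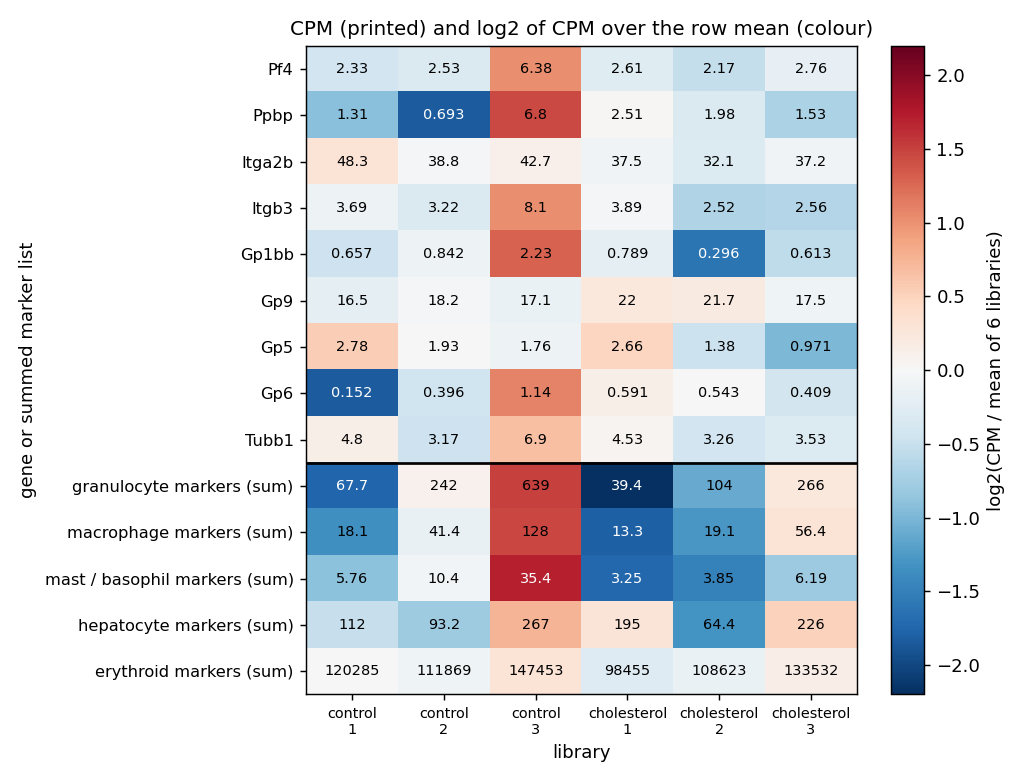
Colour grid of genes (rows) by libraries (columns), with CPM printed in each cell and the colour giving the log2 of CPM over the mean of the 6 libraries (red above it, blue below it), for the 9 members and, under the line, the summed CPM of 5 lists of cell type markers. Control library 3 is the reddest cell for Pf4, Ppbp, Itgb3, Gp1bb, Gp6 and Tubb1 and for all 5 marker sums shown, and it is not for Itga2b, Gp9 and Gp5.

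Over the 6 libraries, the neighbours Pf4 and Ppbp had a Pearson correlation of log2 CPM of 0.80, and Itga2b and Gp9 had −0.78. These values are a description, since the points share libraries and both chemokines are highest in control library 3. The genes whose log2 CPM followed the mean of the 9 members most closely, among 8260 genes with a mean of at least 5 CPM over the libraries, were Arrb2 (r = 0.948), Ywhah (0.946), Tuba1a (0.941), Arhgap9 (0.939) and Pym1 (0.937), and 16 genes (0.194%) lay above 0.9. Arrb2 measured 31.3 CPM in control library 3 and 20.5 to 23.4 CPM in the other libraries.

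Other platelet genes were taken as a list of 96 by role, of which 78 passed the filter and 18 did not. With treatment alone, edgeR called 0 of 78. An unadjusted p under 0.05 was found for 3 of the 78, all lower (F2rl2, Gata2 and Was), against 2.63% of all genes tested. DESeq2 called 1 lower (Gata2). Point estimates were below 0 for 67 and above 0 for 11, with a median of −0.20. Over all 11277 genes tested, 5405 were below 0 and 5872 above 0, with a median of 0.01. With the replicate number in the model, 14 of 78 (17.9%) were lower and 0 were higher, against 5.20% and 1.65% of all genes. DESeq2 with the same terms called 7 lower, against 2.16% of all genes to which it gave an adjusted p. Without the libraries numbered 1, 2 and 3, edgeR called 22, 7 and 13 lower, against 6.12%, 1.99% and 4.64% of all genes in those fits. All 14 were lower in 3 of 3 pairs, against 20.1% of all genes, which a lower call with the replicate number in the model largely presupposes. Control library 3 was the highest library for 12 of them, which such a call also favours. It was the highest for 48 of the 78 (61.5%), against 24.4% of all genes tested.

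Several listed genes that erythroid cells also use were abundant. Mean levels were 269 FPKM for Gata1, 263 for its cofactor Zfpm1, 237 for Nfe2, 225 for Tal1 and 166 for Gfi1b. The actin-binding Pfn1 had 668 FPKM, Tuba4a had 516 and the tropomyosin gene Tpm1 had 126. Genes of the arachidonic acid pathway were low, at 0.972 FPKM for the thromboxane synthase Tbxas1, 0.742 for the cyclooxygenase Ptgs1 and 0.673 for the lipoxygenase Alox12. None of these genes but Nfe2 and Tuba4a was called by edgeR in either model.

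Among transcription factors, 4 of 13 fell with the replicate number in the model, against 5.20% of all genes. Gata2, which maintains progenitors and mast cells and is silenced as erythroid cells mature, measured 6.22, 5.60 and 12.3 CPM in control and 2.37, 2.57 and 2.76 CPM with cholesterol. Its groups did not overlap, and it fell by 1.59 on the log2 scale (edgeR adjusted p = 6.97e-05). Fli1, an ETS factor of megakaryocytes, fell by 1.23 (edgeR adjusted p = 0.00387), and Ets1 fell by 0.92 (edgeR adjusted p = 0.0275), both with overlapping groups. Nfe2, required for platelet release and also active in erythroid cells, was at 395 ± 31.6 CPM in control and 357 ± 27.0 CPM with cholesterol (SD, n = 3 each) and fell by 0.15 (edgeR adjusted p = 0.0373). Gata1 was not called, at 529 ± 19.6 and 506 ± 6.75 CPM (SD, n = 3 each).

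Genes listed under platelet signalling made up 6 of the 14, from 15 tested, again against 5.20% of all genes called lower. Fcer1g, the signalling chain that pairs with glycoprotein VI and also serves Fc receptors of myeloid and mast cells, measured 3.39, 8.77 and 39.0 CPM in control and 2.07, 3.41 and 13.04 CPM with cholesterol. It fell by 1.38 on the log2 scale with the replicate number in the model (edgeR adjusted p = 6.51e-06). The adaptor Lcp2 fell by 1.38, the phospholipase Plcg2 by 1.11, the kinase Syk by 0.85 and the adaptor Dok2 by 0.99 in the same model. These genes are also used by granulocytes, macrophages or mast cells. Fermt3, the kindlin that activates integrins, was far more abundant, at 301 ± 33.5 and 268 ± 23.8 CPM (SD, n = 3 each), and fell by 0.17 (edgeR adjusted p = 0.0222).

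Of the receptor genes, 2 of 6 other adhesion receptors and 1 of 5 agonist receptors fell in that model, beside the same 5.20% of all genes. Itga6, an integrin chain for laminin, measured 5.71, 7.13 and 11.3 CPM in control and 4.93, 5.24 and 5.37 CPM with cholesterol and fell by 0.60 on the log2 scale (edgeR adjusted p = 0.0305). The tetraspanin Cd9 fell by 0.58 (edgeR adjusted p = 0.0260). F2rl2, a thrombin receptor, measured 2.22, 1.93 and 1.71 CPM in control and 0.936, 1.04 and 0.971 CPM with cholesterol, and its groups did not overlap. It fell by 0.99 (edgeR adjusted p = 0.0441).

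None of 13 granule and secreted genes, 12 granule biogenesis genes (Gfi1b, a repressor with a role in alpha granule formation, counted among them) or 3 eicosanoid genes was called by edgeR in either model. Vwf, the ligand of the GPIb-IX-V complex, lay between 19.2 and 21.4 CPM in all 6 libraries, with a log2 fold change of 0.06. In the cytoskeleton group, 1 of 11 fell with the replicate number in the model (5.20% of all genes did), namely Tuba4a, an α-tubulin of platelets, by 0.28 on the log2 scale (edgeR adjusted p = 0.000168). Tuba4a was also among the most abundant of the listed genes, at 1215 ± 141 CPM in control and 1004 ± 161 CPM with cholesterol (SD, n = 3 each).

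**Figure D5:**
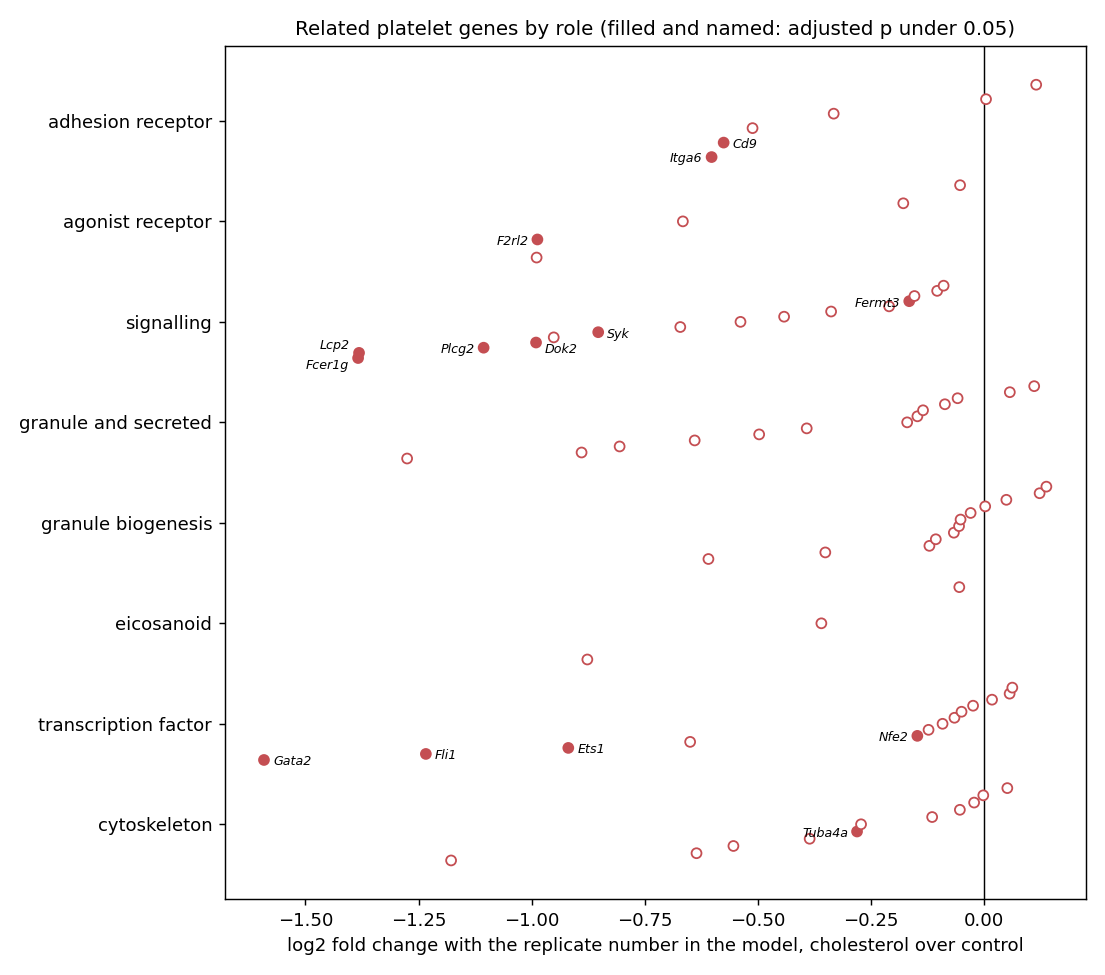
Log2 fold change of cholesterol over control with the replicate number in the model for the 78 related genes that passed the filter, by role. Filled and named points are the 14 genes with an adjusted p under 0.05, all below 0, in the adhesion receptor, agonist receptor, signalling, transcription factor and cytoskeleton groups.

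Markers of other cell types also differed between the libraries. The summed CPM of 8 granulocyte genes was 67.7, 242 and 639 in control and 39.4, 104 and 266 with cholesterol, and 8 of 8 were highest in control library 3. The corresponding sums were 18.1, 41.4 and 128 against 13.3, 19.1 and 56.4 for 8 macrophage genes, and 5.76, 10.4 and 35.4 against 3.25, 3.85 and 6.19 for 7 mast cell and basophil genes. With the replicate number in the model, edgeR called lower 8 of 8 granulocyte genes, 5 of 7 macrophage genes and 4 of 4 mast cell and basophil genes that passed the filter, and 0 higher, against 5.20% and 1.65% of all genes. The same model also called lower 3 of 9 erythroid genes (Alas2, Tfrc and Hbb-bs), 1 of 1 lymphoid gene that passed the filter (Ptprc) and 1 of 3 stem and progenitor genes (Cd34), and it called 0 of 5 hepatocyte and 0 of 2 endothelial genes. No listed marker was at 0 in every library, and the mast cell markers Ms4a2, Prss34 and Fcer1a were below the filter. Of the 4 mast cell and basophil genes called, Kit measured 2.58, 2.82 and 3.48 CPM in control and 1.97, 1.38 and 1.02 CPM with cholesterol. Replicate number was not called for Kit (edgeR adjusted p = 0.895), whereas it was for Cpa3, Mcpt8 and Hdc. The part of these cells in the values of the 9 members and of the related genes was not tested.

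Hepatocyte genes (5) summed to 93.2 to 267 CPM in control and 64.4 to 226 CPM with cholesterol, endothelial genes (5) to 1.52 to 5.81 and 1.23 to 2.81 CPM, and stem and progenitor genes (5) to 2.22 to 9.45 and 1.92 to 2.71 CPM. Lymphoid genes (4 of 5 found) summed to 2.02 to 25.2 and 1.04 to 8.54 CPM. The 9 erythroid genes summed to 111869 to 147453 CPM in control and 98455 to 133532 CPM with cholesterol, against 69.7 to 93.1 and 65.9 to 77.1 CPM for the 9 platelet members. Control library 3 had the highest sum for each of the 8 marker lists and for the members.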

How the data were processed

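RNA-seq of 3 control and 3 cholesterol libraries was analysed. The authors deposited expected counts per gene (estimated counts, of which 27.9% to 29.5% per library were not whole) and a table of normalized values, taken here as FPKM because each value and its count imply a transcript length. The submitters' processing notes name HISAT2 2.0.4, Bowtie2 2.2.5, RSEM 1.2.12, DESeq2 1.4.5 and GRCm38.p6. Their roles and the gene annotation are not given in the sources used here.

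Expected counts were rounded, since the test had been planned for whole counts, and tested with edgeR 4.0.16 in R 4.3.3 (filterByExpr with at least 10 counts in enough libraries and 15 in total, TMM, robust quasi-likelihood test, Benjamini-Hochberg adjustment over 11277 genes). A call is an adjusted p under 0.05. The treatment was fitted alone and with replicate number as a block. The pairing comes from the replicate numbers in the sample titles, and the sources do not say what the numbers stand for. No libraries were copies (chi-square per degree of freedom at least 8.65). Groups of 3 allow an exact permutation test of 1 gene no p below 0.10, so none was run. Alternatives were DESeq2 1.42.0, limma 3.58.1 on log2(FPKM + 1) and log2(FPKM + 0.1), other scalings and filters, and libraries left out in turn. The scripts were tested on simulated data.

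The members, the list of related platelet genes and the marker lists (erythroid, granulocyte, macrophage, mast cell and basophil, hepatocyte, endothelial, lymphoid, stem and progenitor) were chosen with earlier results of these data known. Named genes are the 9 members, related genes called in either model or among the 3 most abundant of their role, listed markers, and the 5 genes most correlated with the members' mean. Gp1ba fell under the rule by abundance, whereas Vwf, Was, Tal1, Jam3 (for its change of sign) and Septin5 (for its overlap with Gp1bb) were named after their values were seen. Gene spans come from the RefSeq gene table on GRCm38.p6, which covers all transcripts of a gene, and strands from GENCODE.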

Additional observations from a re-analysis of the deposited data

How the results depend on the processing

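Over all genes, treatment alone called 1 gene higher and 0 lower, DESeq2 called 2 higher and 26 lower, and leaving out 1 library gave 0 to 7 lower, the 7 without control library 3. The replicate block called 186 higher and 586 lower, 368 and 829 with no filter on low counts, 41 and 239 in DESeq2, and 118, 67 and 210 higher and 703, 229 and 516 lower without the libraries numbered 1, 2 and 3. Of the 9 members, the block called 0 higher and 1 lower, 1 and 1 with no filter (Gp9 higher), 0 in DESeq2, and 0 to 2 higher and 1 lower without the libraries of 1 number. Without number 1 the member called was Gp1bb (−1.72, edgeR adjusted p = 0.0136). With all 6 libraries and the usual filter, the block changed no other call among the members. Of the related genes, DESeq2 called 1 lower without the block and 7 with it, and the block in edgeR called 14 lower, 23 with no filter, and 1, 0 and 1 higher and 22, 7 and 13 lower without the libraries numbered 1, 2 and 3. Replicate number called 3 members, 0 in DESeq2, 1 in limma at either pseudocount and 0 without a term for treatment. The share of all genes was not taken for these other fits.

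Log2 fold changes that changed sign were those of Ppbp (0.10 in limma on log2(FPKM + 0.1), 0.18 with the block in DESeq2, −1.01 to 0.999 with 1 library left out, −0.78 to 1.18 with the block and 1 number left out), Gp6 (0.026 with the block and no filter, 0.24 with the block in DESeq2, −0.56 to 0.89 with 1 library left out, −0.62 to 1.05 with the block and 1 number left out), Pf4 (−0.82 to 0.053 with 1 library left out) and Jam3 (0.0048 with the block, against −0.039). With 1 library left out, the difference of number 3 minus number 1 ranged from −0.80 to 2.51 for Ppbp, −0.50 to 1.03 for Itgb3, −0.28 to 1.70 for Gp1bb, −0.38 to 0.55 for Tubb1, −0.26 to 2.55 for Gp6 and −0.28 to 0.0068 for Gp9. The cause was not tested. Fold changes of the related genes, Jam3 among them, were compared only between edgeR with and without the block, and the other settings cover the members alone. A minimum of 10 counts in every library left out Gp1bb and Gp6, so they have no value there. At its lowest, Gp6 had 3 rounded counts in a library.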
